A study of Homo sapiens with 6 samples.

Results

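The genes of hepatic drug and steroid metabolism were examined in RNA-seq of Hep3B cells, a human hepatocellular carcinoma line, with NXN knocked down. The set held 53 listed genes of 23406 features: 19 cytochrome P450s, the P450 reductase, 8 conjugating enzymes, 9 aldehyde, alcohol and carbonyl enzymes, 4 hydrolases and other oxidases, 8 transporters and 4 nuclear or ligand-activated receptors. They were chosen by symbol, and each of the 53 matched 1 Ensembl identifier. The 6 libraries were 3 of cells transduced with a control shRNA (shControl) and 3 of cells transduced with an shRNA against NXN (shNXN), the gene of nucleoredoxin. Both groups were labelled wild type, carried a lentiviral construct made in 293T cells and had been selected in puromycin. In each group 1 library was taken on day 7, 1 on day 9 and 1 on day 11, so a value for 1 group and day had no replicate. The labels do not say that the days were separate cultures, so p-values measured only the spread between these libraries, and they do not say which of several shRNA sequences was used.

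In the liver, fat-soluble drugs, steroids and bile acids are handled in steps. P450 enzymes in the endoplasmic reticulum or mitochondria insert oxygen into the substrate, and the microsomal ones take their electrons from P450 reductase (POR). Transferases then attach glucuronic acid, sulfate or other groups, and transporters carry substrates into the cell and conjugates out of it. The receptors PXR (NR1I2) and CAR (NR1I3) switch on many of these genes, the aryl hydrocarbon receptor (AHR) switches on CYP1 genes, and SHP (NR0B2) represses bile acid synthesis.

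The estimated counts summed to between 15349382 and 16332589 per library. NXN stood at 181, 138 and 143 CPM (counts scaled to a common library size) in shControl on days 7, 9 and 11, and at 42.7, 47.5 and 39.5 CPM in shNXN. The groups did not overlap, and the log2 fold change was -1.83 (SE 0.16, adjusted p = 0.0378 from edgeR). With 1 library left out the adjusted p from edgeR ran from 0.00131 to 0.225, and the call was lost without shControl day 7 or 11 or shNXN day 7 or 9. All 10 hepatocyte markers were detected, their FPKM summing to between 16122 and 25652 per library. None was called in either fit, although ALB, AFP, APOB, APOH and FGB differed between days as described with the day 11 term. Of the fibroblast or stellate markers 2 of 7 were detected, with summed FPKM between 2.37 and 4.52 in all libraries, and of the endothelial markers 0 of 4, with at most 0.02 FPKM. Of the blood markers 2 of 6 were detected, CD14 and LYZ, with summed FPKM of 79.6 to 127 in shControl and 120 to 239 in shNXN. PTPRC, CD3E and HBB, which mark leukocytes, T cells and red cells, were not detected, and the part of blood cell RNA in the results was not tested.

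First, the repertoire of the cells was described in the shControl libraries. A gene was called detected when it reached 1 CPM in each of the 3 shControl libraries, and levels were compared between genes as FPKM, which is scaled to transcript length. By this measure 38 of the 53 genes were detected, 12 were low and 3 had 0 counts in all 6 libraries. The genes at 0 were CYP7A1, the rate-limiting enzyme of classical bile acid synthesis, CYP8B1, which is needed for cholic acid, and NNMT, which methylates nicotinamide. A count of 0 allowed up to 0.184 to 0.195 CPM, taking 3 counts per library as the limit and covering counting error only. The low genes were CYP2C8, CYP2E1, CYP3A4, CYP4F2, CYP19A1, CYP39A1, AKR1C3, CES1, ABCB11, ABCG2, SLC10A1 and NR1I2. They include the main drug-metabolising P450 of adult liver (CYP3A4), the main liver carboxylesterase (CES1), the bile salt export pump (ABCB11), the bile salt uptake carrier NTCP (SLC10A1) and PXR.

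**Figure D1:**
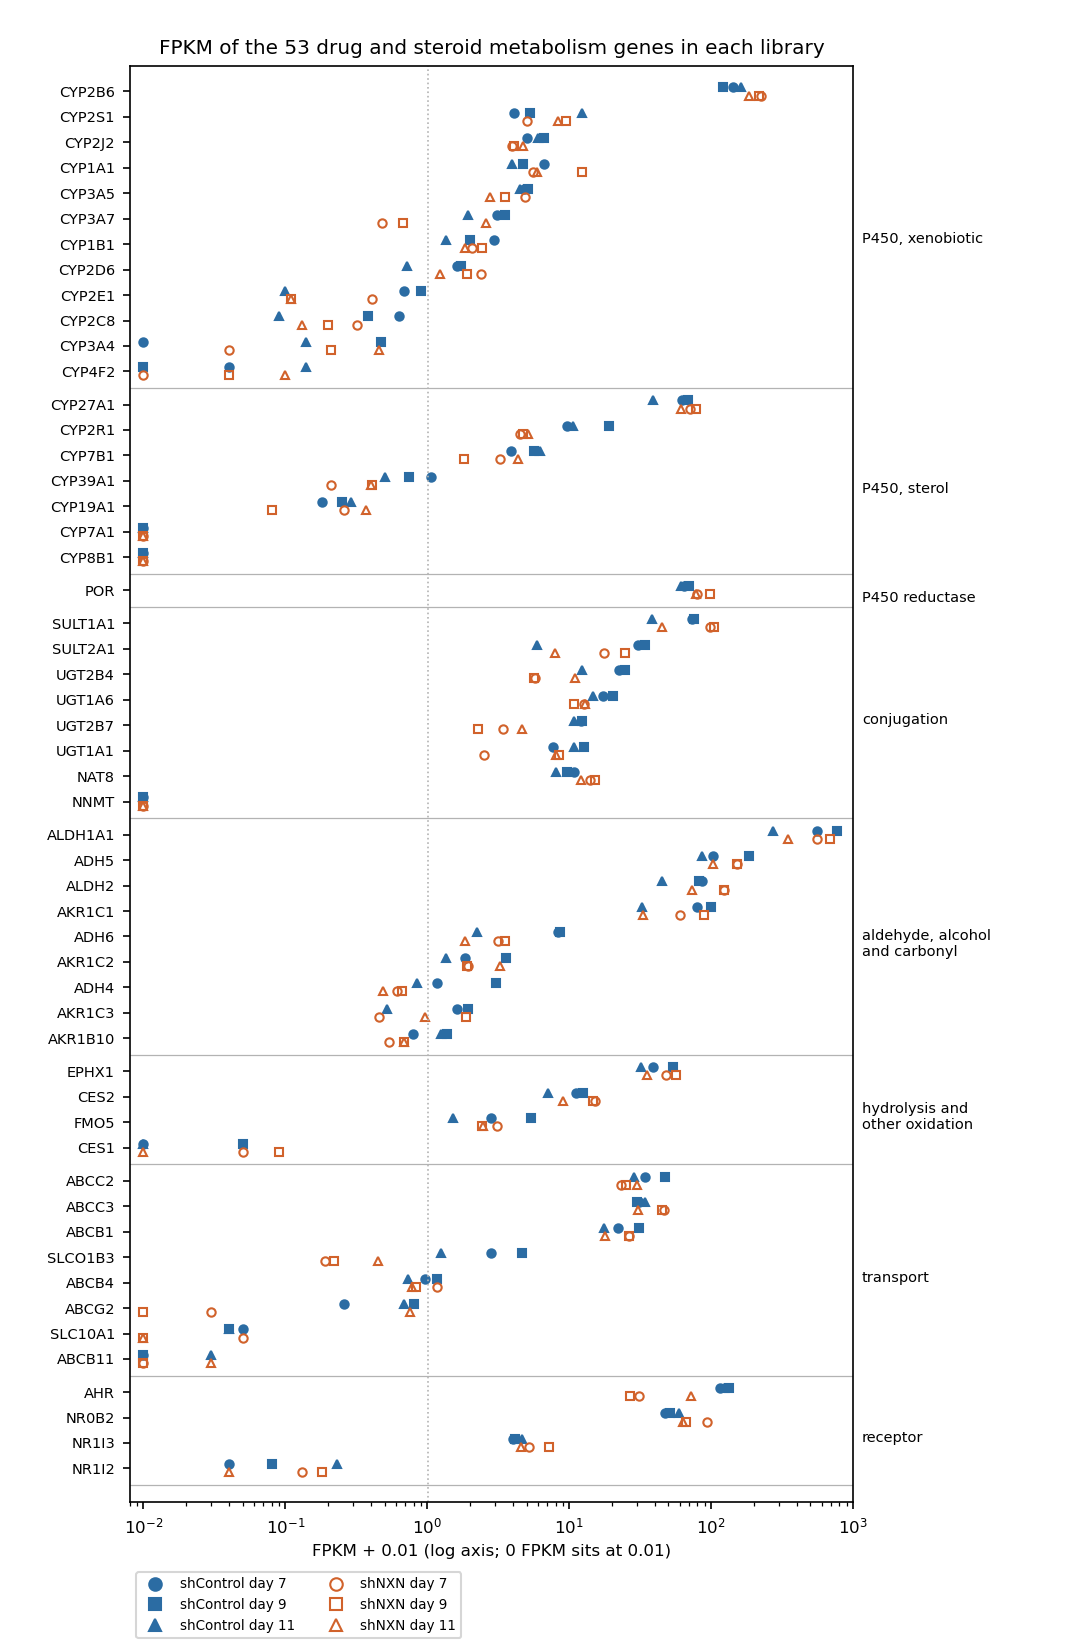
FPKM + 0.01 of the 53 genes in each of the 6 libraries on a log axis, grouped by role; filled blue symbols are shControl, open orange symbols shNXN, and the shape gives the day. ALDH1A1, CYP2B6, ADH5 and AHR lie above 100 FPKM on average in shControl, and CYP7A1, CYP8B1 and NNMT lie at 0.

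ALDH1A1, a retinaldehyde dehydrogenase, had the highest level of the set, with 553, 773 and 273 FPKM in shControl and 555, 691 and 346 FPKM in shNXN on days 7, 9 and 11. It was followed in shControl by CYP2B6 at 141 ± 20.6 FPKM (SD, n = 3), ADH5 at 124 ± 52.8 FPKM and AHR at 124 ± 8.97 FPKM. These 3 genes did not differ beyond their spread. ADH5 is the glutathione-dependent formaldehyde dehydrogenase. ALDH2, AKR1C1, POR, SULT1A1, CYP27A1 and NR0B2 formed the next tier, with means from 52.7 to 70.9 FPKM and overlapping spreads. The lowest detected gene was ABCB4, the phosphatidylcholine exporter of bile, at 0.943 ± 0.22 FPKM.

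Within the P450s the transcript pool was dominated by CYP2B6, a drug-metabolising enzyme that is a known target of CAR. Over all 54 P450 genes matched in the files, the 19 listed here and 35 others, CYP2B6 made up 43.4%, 37.7% and 45.8% of the summed FPKM in shControl on days 7, 9 and 11. In shNXN its share was 56.4%, 54.5% and 50.5%, so over the 54 genes each shNXN library lay above each shControl library. CYP27A1, the mitochondrial sterol 27-hydroxylase, held 11.1% to 21.3% over the 6 libraries. On day 11 CYP51A1, a cholesterol synthesis enzyme outside the set, held 17.4% in shControl and 10.5% in shNXN. Of the summed FPKM of the 19 listed P450s alone, CYP2B6 held 57.2%, 49.2% and 64.8% in shControl on days 7, 9 and 11. In shNXN it held 68.1%, 64.2% and 65.0%, so by this measure the groups overlapped. CAR itself was detected at a modest level of 4.25 ± 0.339 FPKM in shControl, whereas PXR reached only 0.03, 0.07 and 0.22 FPKM. The CYP3A genes showed the order CYP3A5 (4.82 ± 0.316 FPKM), CYP3A7 (2.85 ± 0.812 FPKM), CYP3A4 (0.197 ± 0.237 FPKM) in shControl. CYP3A7, the main CYP3A form of fetal liver, was above CYP3A4 in each shControl library. The coding sequences of CYP3A4 and CYP3A7 were identical at 94.6% of 1509 aligned bases, so reads can be misassigned between them. Their counts were whole numbers in every library, whereas those of CYP3A5 were whole in none, so reads of CYP3A5 may be shared with similar genes.

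**Figure D2:**
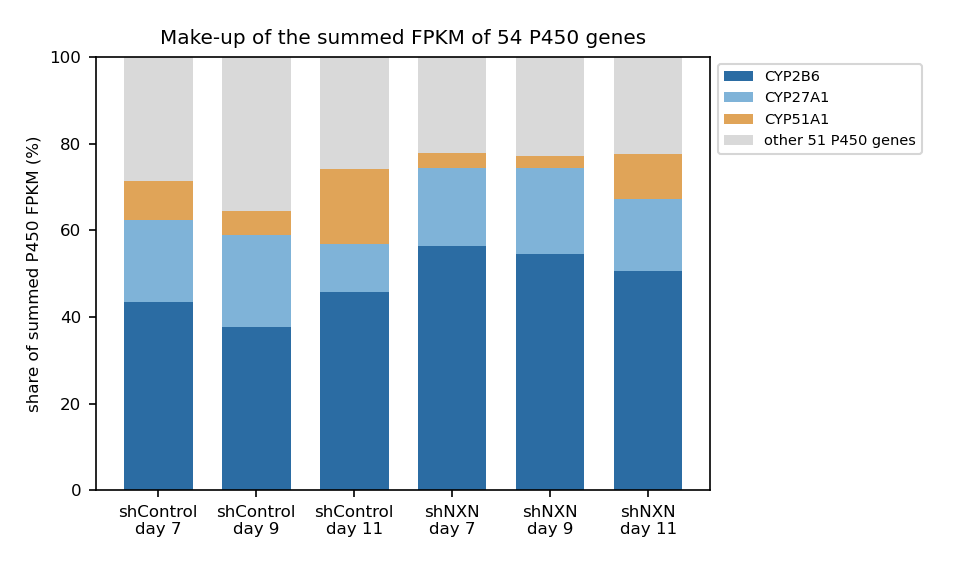
Share of the summed FPKM of 54 P450 genes, in percent, held by CYP2B6, CYP27A1, CYP51A1 and the other 51 genes in each library. CYP2B6 holds 37.7% to 45.8% in shControl and 50.5% to 56.4% in shNXN.

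Next, shNXN was compared with shControl. Of the 53 genes, 41 had enough counts to be tested. UGT2B7, which glucuronidates steroids and opioids, was the 1 gene that passed an adjusted p of 0.05 in edgeR's quasi-likelihood test, and it was lower. Over all 14071 tested features, 3.39% were called, 0.185% higher and 3.21% lower. When the fit included the replicate number, which follows the day, 6 of the 41 were called, 5 lower (UGT2B7, SLCO1B3, AHR, CYP2R1 and ABCB1) and 1 higher (ALDH2), against 23.3% of all features, 17% lower and 6.28% higher. DESeq2 called 8 of the 41, against 23.5% of all features. They were CYP2B6, which was higher, and UGT2B7, UGT2B4, SLCO1B3, AHR, CYP2R1, ABCB1 and ADH6, which were lower. With limma on log2(FPKM + 1) only 1 was called, UGT2B7, against 1.68%. At an unadjusted p under 0.05, 14 of the 41 passed without the block, against 32.9% of all features. The groups did not overlap in CPM for 5 genes higher and 11 lower in shNXN, against 19% and 21.5% of all features, or 40.6% in either direction. The median log2 fold change of the 41 genes was -0.35, and that of all features 0.03. The shares called were thus near the background or below it, while the median lay lower.

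The glucuronosyltransferases UGT2B7 and UGT2B4 were lower in shNXN. UGT2B7 (ENSG00000171234, chromosome 4, 69051363 to 69112987 in GRCh38) had 19.1, 19.3 and 16.8 CPM in shControl and 5.29, 3.55 and 7.73 CPM in shNXN on days 7, 9 and 11. The groups were well apart, and the log2 fold change was -1.73 (SE 0.31, adjusted p = 0.0452 from edgeR, 0.0217 with the block). It was lost when any 1 library other than shNXN day 11 was left out, with adjusted p values from edgeR up to 0.225. UGT2B4, the bile acid glucuronosyltransferase, had 40.9, 39.4 and 22.0 CPM in shControl and 9.86, 9.13 and 19.9 CPM in shNXN. The day 11 libraries of the groups were close to each other, and the log2 fold change of -1.40 (SE 0.38) did not pass the test (adjusted p = 0.0737 from edgeR, 0.0644 with the block). These genes of the UGT2B cluster were identical at 90.5% of 1584 aligned coding bases, and their counts were whole numbers in every library. Of the other conjugating enzymes, UGT1A1 (bilirubin) had a log2 fold change of -0.61, UGT1A6 (phenols) -0.27, SULT2A1 (DHEA and bile acids) -0.53, SULT1A1 (phenols) 0.37 and NAT8 (cysteine conjugates) 0.48, and none was called in either fit. The UGT1A genes share their last exons, so their counts are uncertain.

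**Figure D3:**
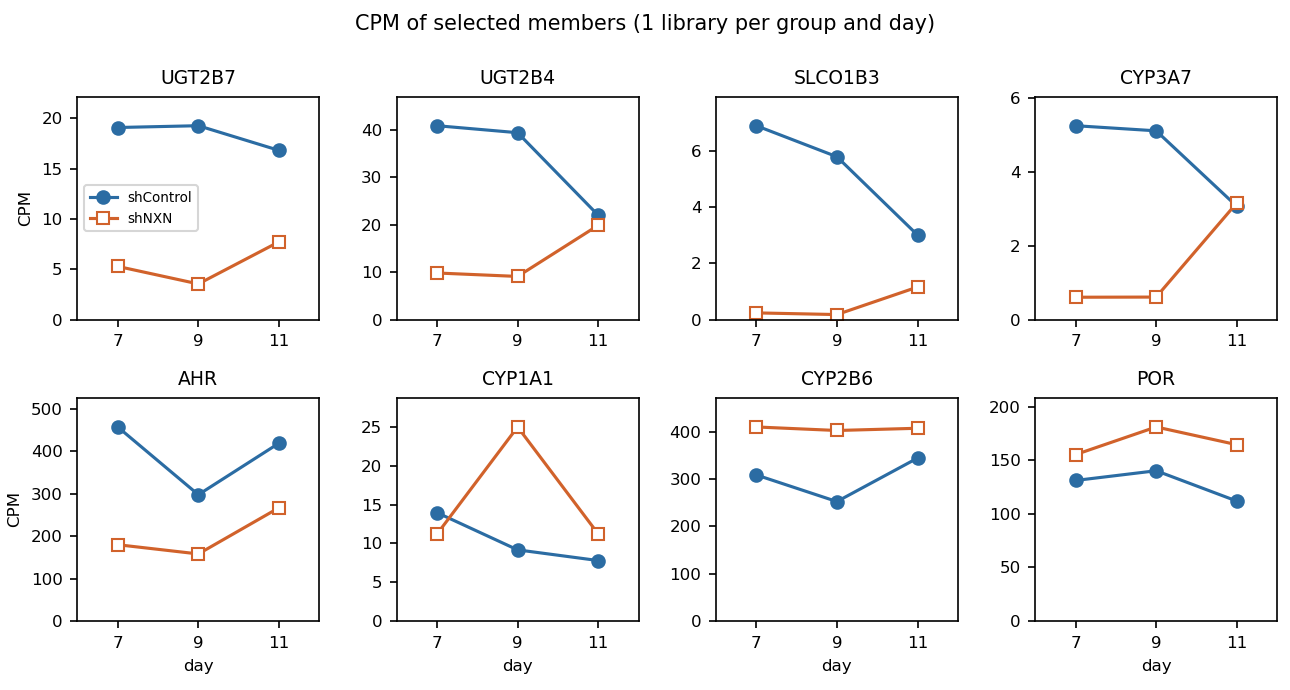
CPM of 8 genes against day, with 1 library per group and day (filled blue circles shControl, open orange squares shNXN). UGT2B7, SLCO1B3 and AHR are lower and CYP2B6 and POR higher in shNXN on each day, UGT2B4 and CYP3A7 are close together on day 11, and CYP1A1 changes order between days.

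Among the transporters the largest difference was in SLCO1B3 (ENSG00000111700, chromosome 12, 20810702 to 20916911 in GRCh38), which takes up organic anions including bile acids. It had 6.88, 5.78 and 3.01 CPM in shControl and 0.243, 0.184 and 1.16 CPM in shNXN on days 7, 9 and 11. The groups did not overlap, although the shNXN values of days 7 and 9 rested on 4 and 3 counts. The log2 fold change was -3.30 (SE 0.69), with an adjusted p of 0.0515 from edgeR and 0.0382 with the block. ABCB1, the drug export pump P-glycoprotein, had 64.1, 69.6 and 62.3 CPM in shControl and 33.0, 36.9 and 52.9 CPM in shNXN. Its log2 fold change was -0.67 (SE 0.21, adjusted p = 0.0848 from edgeR, 0.0491 with the block). In FPKM the groups of ABCB1 overlapped, with means of 23.5 ± 6.96 in shControl and 23.7 ± 4.94 in shNXN (SD, n = 3). ABCC2, the canalicular exporter of conjugates, had a log2 fold change of -0.49 and ABCC3, its basolateral counterpart, 0.23, and neither was called in either fit. ABCB4 had a log2 fold change of -0.04. The multidrug exporter ABCG2 had 1.05, 0.80 and 1.23 CPM in shControl and 0.0609, 0 and 1.68 CPM in shNXN, that is 1, 0 and 26 counts, so its day 11 library went against the others.

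Of the receptors AHR was called as lower with the block but not without it, and the others were called in neither fit. AHR (ENSG00000106546, chromosome 7, 16916359 to 17346152 in GRCh38) had 457, 298 and 419 CPM in shControl and 180, 158 and 267 CPM in shNXN on days 7, 9 and 11. The groups did not overlap, and the log2 fold change was -0.96 (SE 0.25, adjusted p = 0.0674 from edgeR, 0.0214 with the block). In FPKM it had 124 ± 8.97 in shControl and 43.3 ± 25.1 in shNXN, a larger gap than in CPM. CAR had a log2 fold change of 0.41 (SE 0.27, adjusted p = 0.304 from edgeR), with 3.15, 3.69 and 3.07 CPM in shControl and 3.71, 5.39 and 4.06 CPM in shNXN. SHP had 42.7, 46.6 and 51.2 CPM in shControl and 79.3, 56.3 and 57.1 CPM in shNXN, and its log2 fold change was 0.46 (SE 0.19, adjusted p = 0.142 from edgeR, 0.117 with the block). The groups were apart for CAR and SHP in CPM, with shNXN above, but neither gene passed the test. In FPKM those of SHP were apart as well, but those of CAR overlapped. CAR had 3.98, 4.14 and 4.63 FPKM in shControl and 5.23, 7.18 and 4.58 FPKM in shNXN. PXR was too low to be tested, with 1 to 6 counts per library. The counts of AHR, CAR and SLCO1B3 were not whole in some library, so a part of their reads may be shared with overlapping or similar genes.

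CYP1A1, which oxidises polycyclic aromatic hydrocarbons, is the classical target of AHR. It had 13.96, 9.17 and 7.79 CPM in shControl and 11.2, 25.01 and 11.2 CPM in shNXN on days 7, 9 and 11. The groups overlapped, and the log2 fold change of 0.62 (SE 0.40, adjusted p = 0.298 from edgeR, 0.27 with the block) had the opposite sign to that of AHR. CYP1B1, also an AHR target, had a log2 fold change of -0.51 (SE 0.37, adjusted p = 0.348 from edgeR). The CYP1A1 promoter is shown because AHR binds the core GCGTG. The 250 bases before the RefSeq start (chr15:74725529-74725778, minus strand, GRCh38.p14) are given 5′ to 3′ with the core in capitals, which was found 1 time when both strands were searched.
CYP1A1 promoter: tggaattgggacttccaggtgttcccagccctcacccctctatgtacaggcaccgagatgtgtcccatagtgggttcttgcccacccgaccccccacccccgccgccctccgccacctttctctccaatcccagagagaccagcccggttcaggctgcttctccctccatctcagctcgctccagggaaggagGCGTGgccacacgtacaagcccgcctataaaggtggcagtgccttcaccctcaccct
The core occurred on either strand in 36.2% of the 27305 genes with a promoter in the RefSeq table. It occurred in 8 of the 38 members found there (ABCB1, ABCG2, ADH5, CES2, CYP1A1, CYP2J2, EPHX1 and UGT1A6). A match is a description of the letters and not a bound site.

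Of the xenobiotic P450s, CYP2B6 had 309, 252 and 344 CPM in shControl and 410, 403 and 407 CPM in shNXN on days 7, 9 and 11. Each shNXN library lay above each shControl library, but the log2 fold change of 0.43 (SE 0.14) did not pass the test (adjusted p = 0.10 from edgeR, 0.0514 with the block). POR gave a similar picture, with 131, 140 and 112 CPM in shControl and 155, 181 and 165 CPM in shNXN. Its log2 fold change was 0.39 (SE 0.14, adjusted p = 0.114 from edgeR, 0.0562 with the block). CYP2S1, an extrahepatic P450, varied more between days than between groups, from 7.74 to 23.9 CPM in shControl, and its log2 fold change was 0.04 (SE 0.45). CYP2D6, CYP2J2, CYP3A5 and CYP3A7 had log2 fold changes of 0.25, -0.25, -0.40 and -1.62, and none was called in either fit.

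Among the sterol P450s, CYP2R1, the vitamin D 25-hydroxylase, had 10.8, 18.6 and 12.9 CPM in shControl and 6.57, 6.74 and 7.28 CPM in shNXN on days 7, 9 and 11. The shNXN libraries were close to one another and all below shControl, and the log2 fold change was -1.03 (SE 0.26, adjusted p = 0.0652 from edgeR, 0.0358 with the block). CYP39A1, which hydroxylates 24-hydroxycholesterol, had 1.57, 1.42 and 0.92 CPM in shControl and 0.365, 0.736 and 0.773 CPM in shNXN. The groups of CYP39A1 did not overlap, but the log2 fold change of -1.05 (SE 0.42) did not pass the test (adjusted p = 0.138 from edgeR, 0.132 with the block). CYP27A1 had a log2 fold change of 0.30 (SE 0.22, adjusted p = 0.367), and the oxysterol hydroxylase CYP7B1 of -0.78 (SE 0.40, adjusted p = 0.216), both from edgeR and both with overlapping groups.

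Of the aldehyde, alcohol and carbonyl enzymes, ALDH2, the mitochondrial acetaldehyde dehydrogenase, was higher on each day. It had 149, 145 and 76.9 CPM in shControl and 204, 207 and 131 CPM in shNXN on days 7, 9 and 11. The day 11 library was the lowest of each group, the groups overlapped, and the log2 fold change was 0.55 (SE 0.29, adjusted p = 0.228 from edgeR) without the block and 0.58 (SE 0.11, adjusted p = 0.0286 from edgeR) with it. ALDH1A1 had 963, 1176 and 479 CPM in shControl and 788, 939 and 591 CPM in shNXN, with a log2 fold change of -0.18 (SE 0.33, adjusted p = 0.723 from edgeR). ADH5 had a log2 fold change of -0.17 (SE 0.15, adjusted p = 0.434 from edgeR), and its groups overlapped. ADH4, ADH6 and AKR1B10 had log2 fold changes of -0.82, -1.51 and -0.82, and none was called in either fit.

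AKR1C1 and AKR1C2, hydroxysteroid dehydrogenases that inactivate progesterone and dihydrotestosterone, could not be cleanly separated. Their coding sequences differed at 19 of 969 bases, and the longest identical run was 186 bases. The counts of both were not whole in any library, yet their sum was whole, within 0.005 counts, in 5 of the 6 libraries, as when reads are shared out between them. A window of coding bases 43 to 162 that holds 10 of the 19 differences is shown, with the differing bases in capitals (GENCODE 29, chromosome 10).
AKR1C1: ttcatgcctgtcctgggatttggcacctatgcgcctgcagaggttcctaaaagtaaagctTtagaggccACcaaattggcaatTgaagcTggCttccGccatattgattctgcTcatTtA
AKR1C2: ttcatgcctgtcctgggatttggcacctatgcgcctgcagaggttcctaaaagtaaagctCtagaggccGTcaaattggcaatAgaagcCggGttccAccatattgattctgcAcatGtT
The summed count was 1418, 1851 and 644 in shControl and 1010, 1362 and 637 in shNXN on days 7, 9 and 11. The log2 fold change was -0.41 (SE 0.42) for AKR1C1 and -0.18 (SE 0.40) for AKR1C2, neither called in either fit. AKR1C3, a 17-ketosteroid reductase with 79 differences from AKR1C1, had a log2 fold change of -0.35 (SE 0.54). Of the hydrolases, CES2 (a carboxylesterase), EPHX1 (microsomal epoxide hydrolase) and the oxidase FMO5 had log2 fold changes of 0.29, -0.02 and -0.61, all with overlapping groups.

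The differences were then followed by day, as the log2 CPM of shNXN minus that of the shControl library of the same day. The median of the 41 genes was -0.29, -0.33 and 0.09 on days 7, 9 and 11, and that of all features was 0.00, 0.00 and 0.07. The number lower in shNXN was 28, 26 and 17 of the 41 on these days. The sign was the same on each day for 24 of the 41 (10 higher, 14 lower), against 68.4% of all features (35.8% higher, 32.6% lower). Without day 11, the fit with the block called 16 of the 41 (3 higher: CYP2B6, ALDH2 and NR0B2; 13 lower), against 37% of all features (11.1% higher, 25.9% lower). The further lower genes beside the 5 named above were CYP3A7, UGT1A1, UGT2B4, SULT2A1, ADH6, AKR1C1, ABCC2 and ABCG2. The fit without day 11 rested on the libraries of days 7 and 9 alone, with the fewest degrees of freedom left that still allow a test.

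**Figure D4:**
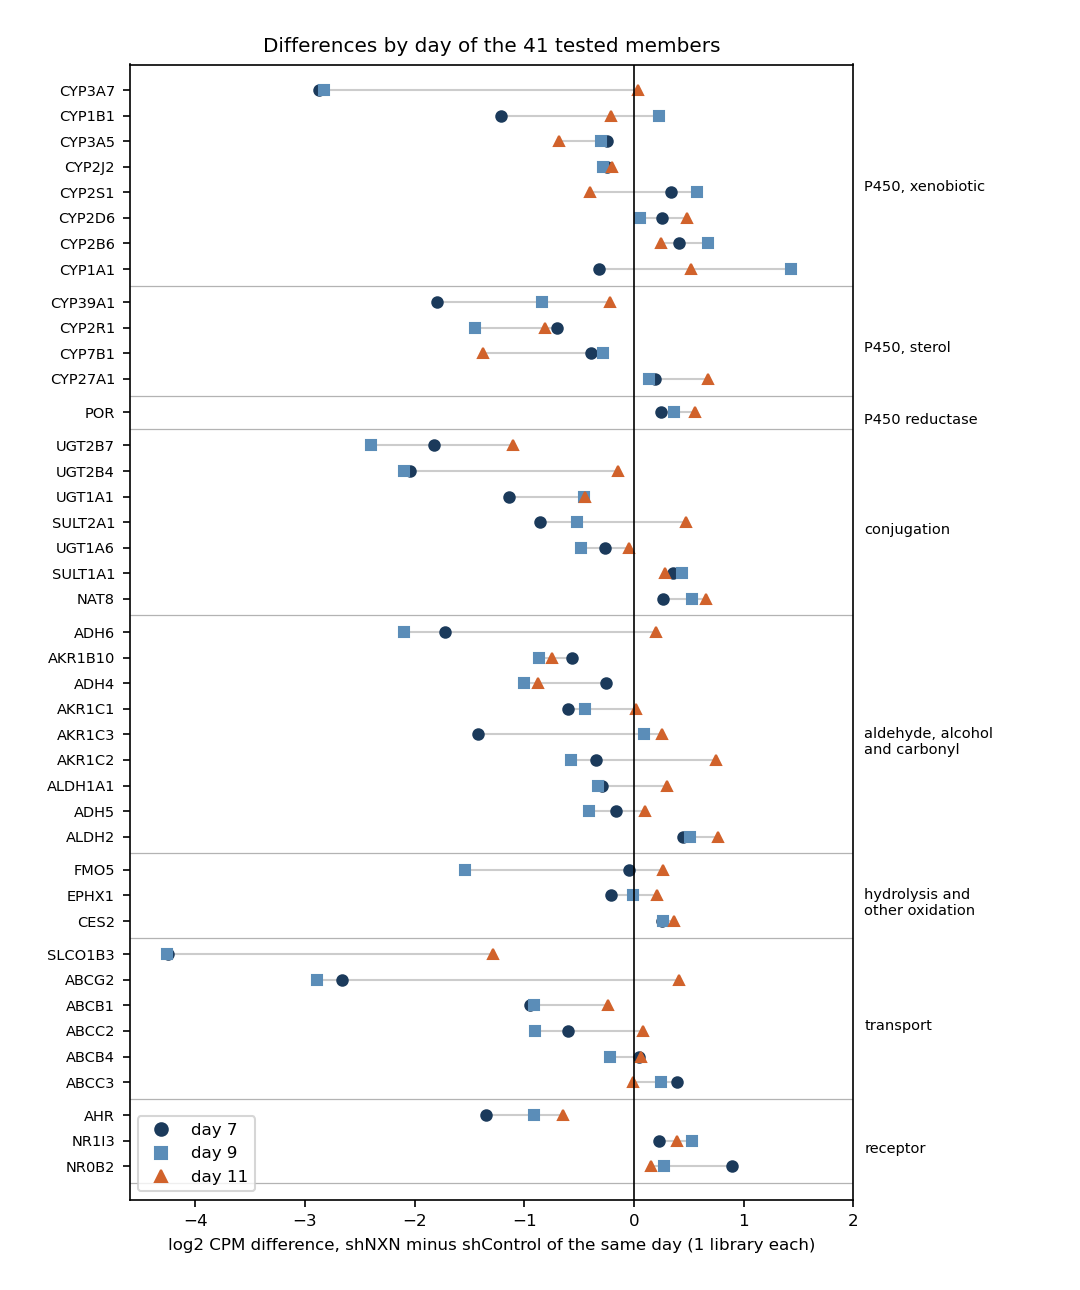
Log2 CPM difference, shNXN minus the shControl library of the same day, for the 41 tested genes, grouped by role and ordered by fold change; dark circles are day 7, light squares day 9 and orange triangles day 11. SLCO1B3, UGT2B4, CYP3A7, ADH6 and ABCG2 lie far below 0 on days 7 and 9 and nearer to 0 or above it on day 11.

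The difference on day 11 was tested against that on days 7 and 9 in 1 fit, a test added after the data had been seen, which called 2.7% of all features and 4 of the 41 genes. UGT2B4 had log2 differences of -2.04, -2.10 and -0.14 (adjusted p of the day 11 term = 0.0209 from edgeR). SLCO1B3 had -4.25, -4.26 and -1.28 (adjusted p of the term = 0.0463 from edgeR). CYP3A7, with 5.25, 5.11 and 3.07 CPM in shControl and 0.609, 0.613 and 3.16 CPM in shNXN, had -2.87, -2.83 and 0.04 (adjusted p of the term = 0.038 from edgeR). ADH6, an alcohol dehydrogenase, had -1.72, -2.09 and 0.20 (adjusted p of the term = 0.0498 from edgeR). In each of these 4 genes shControl was lowest on day 11. In UGT2B4, SLCO1B3 and CYP3A7 shNXN was also highest on day 11, whereas ADH6 had 4.44, 4.17 and 4.38 CPM in shNXN. The same term was called for 5 of the 10 hepatocyte markers, with adjusted p values from edgeR between 0.0157 and 0.0354. Albumin (ALB) had log2 differences of -2.75, -4.32 and 0.06 on days 7, 9 and 11. They were -1.68, -2.08 and -0.04 for AFP, -1.19, -1.56 and 0.30 for APOB, -1.34, -2.44 and 0.16 for APOH and -0.93, -0.87 and 1.04 for FGB. The term was not called for APOA1, APOA2, TTR, SERPINA1 and TF, and the part of a general hepatocyte difference in the results of the 4 genes was not tested. This fit left 1 degree of freedom among the libraries. NXN stayed low in shNXN on day 11, with a log2 difference of -1.85.

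Finally, the base composition of the transcripts was set beside the differences. All 25 tested genes with a transcript GC content under 45% were lower in shNXN, and 13 of the 16 at 45% or more were higher. The exceptions were UGT1A1, AKR1B10 and EPHX1. The 25 had a median log2 fold change of -0.61, and the 4842 features in that range -0.78. The 9 genes over 55% had a median of 0.29, and the 3864 features in that range 0.35. Spearman's rho between GC content and log2 fold change was 0.78 over the 41 genes and 0.79 over 12740 features with a GC value. These are correlations across genes of the same 6 libraries, not independent replicates. By day, rho over the 41 genes was 0.76, 0.75 and 0.48 on days 7, 9 and 11.

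To show what such transcripts look like, the central 120 bases of the coding sequence are given for 2 lower and 2 higher genes, 5′ to 3′ with G and C in capitals (GENCODE 29, from the transcript with the longest coding sequence). The G and C content of these windows is 35.8% for SLCO1B3 (coding bases 994 to 1113, chromosome 12), 40.8% for UGT2B7 (733 to 852, chromosome 4), 53.3% for CYP2B6 (676 to 795, chromosome 19) and 65.8% for NR0B2 (325 to 444, chromosome 1). These genes are examples. The windows not shown held 42.5% for UGT2B4 and 45% for AHR, both lower in shNXN, and 58.3% for POR, which was higher.
SLCO1B3: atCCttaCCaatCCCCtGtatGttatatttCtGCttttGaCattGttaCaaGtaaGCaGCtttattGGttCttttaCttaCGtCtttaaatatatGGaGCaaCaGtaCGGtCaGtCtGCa
UGT2B7: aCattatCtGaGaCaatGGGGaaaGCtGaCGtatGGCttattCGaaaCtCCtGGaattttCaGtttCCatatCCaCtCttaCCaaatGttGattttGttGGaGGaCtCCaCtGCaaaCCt
CYP2B6: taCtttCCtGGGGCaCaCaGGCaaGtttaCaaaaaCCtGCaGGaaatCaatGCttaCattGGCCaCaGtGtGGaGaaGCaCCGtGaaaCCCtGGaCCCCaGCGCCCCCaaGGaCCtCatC
NR0B2: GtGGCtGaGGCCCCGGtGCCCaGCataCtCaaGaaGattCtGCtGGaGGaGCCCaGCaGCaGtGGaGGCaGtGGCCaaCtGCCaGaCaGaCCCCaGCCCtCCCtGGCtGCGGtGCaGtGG

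When a GC trend fitted to every library was taken out as an offset, 0 of the 41 genes were called by edgeR and 3 had an unadjusted p under 0.05, against 0.0355% and 17.1% of all features. With the block as well, 0 were called and 6 had an unadjusted p under 0.05, against 0.924% and 21.4%. The 6 were UGT2B7 and SLCO1B3, both lower, and ADH5, ALDH1A1, ALDH2 and AKR1C2, all higher in shNXN. The median log2 fold change of the 41 became 0.02. Whatever part of the group difference goes with GC content is taken out too, so a true change that follows it and a technical one cannot be told apart. UGT2B7 was still at -0.79 on the log2 scale (edgeR adjusted p = 0.141) and SLCO1B3 at -2.09 (edgeR adjusted p = 0.163). AHR turned from -0.96 to 0.17 (adjusted p = 0.636 from edgeR), and CYP2B6 went from 0.43 to 0.27 and POR from 0.39 to 0.02. CYP2R1 went from -1.03 to -0.20 (adjusted p = 0.819 from edgeR), ABCB1 from -0.67 to -0.16 (adjusted p = 0.657 from edgeR) and UGT2B4 from -1.40 to -0.56 (adjusted p = 0.394 from edgeR). ALDH2, with a GC content of 47.6%, was at 0.59 with the correction (adjusted p = 0.372 from edgeR) and at 0.60 with block and correction (adjusted p = 0.0617 from edgeR). With block and correction ADH5 was at 0.65 (adjusted p = 0.0543 from edgeR) and ALDH1A1 at 0.59 (adjusted p = 0.0584 from edgeR). Both ADH5 and ALDH1A1 had a negative log2 fold change without the correction. NXN, at 59.9% GC, had -2.19 after the correction (adjusted p = 0.00962 from edgeR).

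The wider pathway was examined with 214 further genes of drug, steroid and bile acid metabolism, of which 145 were tested. Without the block 46 of the 145 had an unadjusted p under 0.05 from edgeR, against 32.9% of all features. After adjustment 7 of the 145 were called lower and 0 higher, against 3.39% of all features. They were the glucuronosyltransferases UGT2A3 and UGT2B11, the oestrogen sulfotransferase SULT1E1, the bile acid conjugating enzyme BAAT, the exporter ABCC4, the uptake carrier SLCO1B1 and SLC10A7, a relative of the bile acid carriers. BAAT, which joins bile acids to glycine or taurine, had 35.9, 30.2 and 23.9 CPM in shControl and 4.69, 4.29 and 8.06 CPM in shNXN (log2 fold change -2.40, SE 0.31, adjusted p = 0.0395 from edgeR). SULT1E1 had 54.3, 42.1 and 28.8 CPM in shControl and 11.3, 5.33 and 12.4 CPM in shNXN (log2 fold change -2.11, SE 0.38, adjusted p = 0.0452 from edgeR). SLCO1B1, the closest relative of SLCO1B3, had 1.18, 0.984 and 0.675 CPM in shControl and 0, 0 and 0.0644 CPM in shNXN. SLCO1B1 was thus low in both groups. The fit with the block called it as well, but DESeq2 and limma on log2(FPKM + 1) did not. The groups of each of these genes did not overlap in CPM.

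With the block 33 of the 145 were called, 9 higher and 24 lower, against 23.3% of all features. The 5 with the smallest p were PON2, a paraoxonase family lactonase, BAAT, UGT2B11, TPMT, which methylates thiopurine drugs, and SULT1E1. PON2 had log2 differences of -1.02, -1.02 and -0.89 on days 7, 9 and 11, and TPMT of -1.16, -1.21 and -0.70. With block and GC correction 2 of the 145 were called, against 0.924% of all features, namely BAAT (lower, log2 fold change -1.61, adjusted p = 0.0494 from edgeR) and CYB5A (higher, 1.25, adjusted p = 0.0454 from edgeR). CYB5A is cytochrome b5, an electron carrier of P450s. In CPM the groups of CYB5A overlapped, and without the correction its log2 fold change was 0.25 in the fit with the block. BAAT had the same sign on each day, with log2 differences of -2.91, -2.78 and -1.55.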

How the data were processed

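RNA of Hep3B cells was sequenced in 6 libraries, 3 shControl and 3 shNXN, on days 7, 9 and 11, and groups and days were taken from the labels. The authors deposited estimated counts per gene and, in a second table, FPKM values (fragments per transcript length and library size) of the same 23406 features. The aligner and the counting program are not given in the sources used here. The submitters' processing notes name the mouse build GRCm38 (mm10), whereas the identifiers are human Ensembl identifiers, so the build was not relied on. There were 0 columns without a sample. Estimated counts share reads among similar genes, and 11 of the 53 genes had a count that was not whole in some library.

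Counts were rounded and tested in edgeR 4.0.16 (R 4.3.3) with TMM factors, filterByExpr and the quasi-likelihood test over all 14071 kept features, with Benjamini-Hochberg adjustment and a threshold of 0.05. CPM used the TMM factors, and log2 differences by day a prior count of 2. The standard error is the log2 fold change divided by the square root of F. The replicate numbers follow the days in the labels. Same-day deviations from the group means correlated at 0.30 to 0.45, and other pairs at -0.37 to 0.15, and the block was used on this basis. The deviations of a group cancel out, so these correlations are not independent and do not show that the libraries were paired. The GC trend was a natural spline with 5 degrees of freedom over the longest GENCODE 29 transcript, known for 90.5% of tested features. DESeq2 1.42.0, limma 3.58.1 on log2(FPKM + 1) and log2(FPKM + 0.1), RLE factors, library size only, other filters and each library left out were tried. The test was checked on simulated counts drawn with no day effect and no GC trend, so the check does not cover either.

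The genes named are NXN, those called in the fit without or with the block, the 2 detected genes of each role with the highest FPKM, tested genes with a log2 fold change of at least 1 in size and the same sign on each day, all receptors and POR. Of the further genes they are those called without the block and the 5 of smallest p with it. Values of other genes were added after they had been seen. The genes and lists were chosen with earlier results of these data known. Python 3.11.15, numpy 2.4.6, pandas 2.3.3, scipy 1.17.1 and matplotlib 3.10.9 were used.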

Additional observations from a re-analysis of the deposited data

Results flagged for a closer look

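The difference between shNXN and shControl had opposite signs on different days for 7 named genes, and for these the difference between days was not called in the test of day 11 against days 7 and 9. On days 7, 9 and 11 the log2 CPM differences were 0.34, 0.57 and -0.40 for CYP2S1 and -0.86, -0.52 and 0.48 for SULT2A1. They were -0.29, -0.33 and 0.30 for ALDH1A1 and -0.17, -0.41 and 0.10 for ADH5. They were -0.20, -0.01 and 0.21 for EPHX1, -0.60, -0.90 and 0.09 for ABCC2, and 0.39, 0.25 and -0.01 for ABCC3. Each is 1 library against 1 on each day.

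In 4 genes the difference on day 11 departed from that on days 7 and 9 in the edgeR fit with a day 11 term. The term was 3.11 for CYP3A7 (adjusted p = 0.038), 1.94 for UGT2B4 (adjusted p = 0.0209), 2.14 for ADH6 (adjusted p = 0.0498) and 3.47 for SLCO1B3 (adjusted p = 0.0463) on the log2 scale, all towards a smaller difference on day 11. CYP3A7 and ADH6 fall outside the rule for named genes and were picked with their values in view.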

How the results depend on the processing

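Of the 14071 tested features 477 were called. With DESeq2 it was 3311, and with limma 236 on log2(FPKM + 1) and 20 on log2(FPKM + 0.1). In edgeR it was 826 with RLE factors, 929 by library size alone, 818 with no filter and 3272 with the replicate block. Also in edgeR, it was 5 with GC correction and 130 with block and GC correction. With the block without day 11 edgeR called 5250, and with 1 library left out 0 to 3706. Of the 41 tested genes 1 was called, and 8, 2, 2, 2, 6, 0, 0 and 16 under DESeq2, RLE, library size, no filter, block, GC correction, block and GC correction, and block without day 11, 0 with limma on log2(FPKM + 0.1), and 0 to 8 with 1 library left out (8 without shNXN day 11, 0 without any other). Of the further genes 7 were called, 25 with DESeq2, 33 with the block, 0 with GC correction, 2 with block and GC correction, 4 and 2 with limma (pseudocounts 1 and 0.1), 56 with the block without day 11, and 0 to 35 with 1 library left out (35 without shNXN day 11, 1 without shControl day 9). The numbers tested also moved with the setting. With no filter 19384 features were tested, among them 50 of the listed genes and 195 of the further genes. With the block without day 11 it was 14201 features, among them 146 of the further genes. The cause of the changes in calls was not tested.

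The number of genes detected was 41 at 0.5 CPM, 34 at 1 FPKM, 34 over 6 libraries and 38 to 40 with 1 shControl library left out. Medians by day on log2(FPKM + 0.1) were -0.26, -0.45 and 0.09.

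With GC correction, without and with the block, these log2 fold changes changed sign: CYP2S1 (-0.35 and -0.21), CYP27A1 (-0.050 and -0.025), CYP39A1 (0.045 and 0.076), SULT2A1 (0.022 and 0.16), ALDH1A1 (0.58 and 0.59), ADH5 (0.66 and 0.65), CES2 (-0.048 and -0.033), ABCC3 (-0.11 and -0.11) and AHR (0.17 and 0.18). On log2(FPKM + 1) and log2(FPKM + 0.1) those of ALDH1A1 (0.063 and 0.063), ADH5 (0.18 and 0.18), EPHX1 (0.17 and 0.17) and ABCB1 (0.026 and 0.027) did. EPHX1 was 0.014 with DESeq2 and RLE factors and 0.034 with no filter. With 1 library left out, CYP2S1 ranged from -0.24 to 0.73, ALDH1A1 from -0.40 to 0.14 and EPHX1 from -0.16 to 0.16. Values that kept their sign but moved over 1.5 times were those of SULT2A1 (-0.92 to -0.09), ABCC2 (-0.61 to -0.26), ADH5 (-0.21 to -0.01), SULT1A1 (0.18 to 0.64), CES2 (0.15 to 0.48), CYP27A1 (0.15 to 0.51), ABCC3 (0.14 to 0.37), ALDH2 (0.36 to 0.75), NR1I3 (0.24 to 0.53) and NR0B2 (0.28 to 0.59). The replicate block changed no call beyond those given above.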
